A study of Mus musculus with 6 samples.

Results

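The genes described here make and load MHC class II, the cell surface complex that shows peptides from endocytosed protein to CD4+ T cells. They were chosen by gene symbol from a table of 22274 mouse genes: the invariant chain gene Cd74, the class II chain genes H2-Aa, H2-Ab1 and H2-Eb1, the peptide-loading chaperone genes H2-DMa and H2-DMb1, and the transactivator gene Ciita. The 7 symbols match 9 rows of the table, because H2-DMb2 carries the symbol H2-DMb1 there and H2-Eb2 carries the symbol H2-Eb1. The symbols were picked with the difference between the groups already known. The levels of these genes and their differences between the groups are therefore given as a description, without a test.

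RNA-seq was made from mouse kidney cells in culture, labelled as primary renal fibroblasts. In 3 libraries the cells carried a scrambled control siRNA, under a label that gives the genotype as WT, and in 3 they carried siRNA against Prune2, under a label of knockdown. All 6 had been given TGF-β, a cytokine that activates fibroblasts, at 5 ng/ml for 48 h, so no library shows these genes without TGF-β. Strain, age and the number of siRNA sequences used were not given in the sources used here, nor was it stated whether the replicates are separate cultures, so p-values reflect only how far these libraries scatter, and that scatter may be technical.

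Class II chains are transcribed under the control of CIITA, a protein that does not bind DNA itself but is recruited by an assembly of RFX, CREB and NF-Y proteins. That assembly sits on the X1, X2 and Y boxes, short elements placed at a fixed distance from each other just upstream of class II genes. In the cell, the alpha and beta chains pair in the endoplasmic reticulum with the invariant chain, which blocks the peptide groove. Cathepsins then trim the invariant chain in endosomes, and the DM heterodimer exchanges its last fragment for an antigen peptide. Ciita is active all the time in dendritic cells and B cells and can be induced by interferon-γ in many other cells, macrophages, fibroblasts and kidney tubule cells among them.

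The X and Y boxes can be read in the promoter windows that RefSeq gives for these genes on GRCm38.p6. The windows run from 250 bases before the start to 50 after it, and 6 of the 9 genes had one, with 7 windows in all because H2-DMa has 2. Cd74, H2-Ab1 and Ciita had none. Shown are the stretches from 160 to 31 bases upstream of the start for the genes with an X or Y box there, 5′ to 3′ on the gene's own strand. Capitals mark a match to the short X1 box ACNGATG, the X2 box TGACGTCA or the Y box core ATTGG on the printed strand. The first is H2-Aa, at chr17:34287854-34287983 on the minus strand. The others are on the plus strand, at chr17:34305707-34305836 for H2-Eb1, chr17:34153031-34153160 for H2-DMb1, chr17:34145089-34145218 for H2-DMb2 and chr17:34325515-34325644 for H2-Eb2.
H2-Aa: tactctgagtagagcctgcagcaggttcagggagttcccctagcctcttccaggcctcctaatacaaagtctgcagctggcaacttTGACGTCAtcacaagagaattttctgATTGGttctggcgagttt
H2-Eb1: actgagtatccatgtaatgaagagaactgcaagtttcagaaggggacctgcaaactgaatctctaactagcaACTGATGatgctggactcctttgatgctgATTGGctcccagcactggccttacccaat
H2-DMb1: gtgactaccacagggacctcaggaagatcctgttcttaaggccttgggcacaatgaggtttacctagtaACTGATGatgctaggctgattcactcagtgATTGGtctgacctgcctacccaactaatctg
H2-DMb2: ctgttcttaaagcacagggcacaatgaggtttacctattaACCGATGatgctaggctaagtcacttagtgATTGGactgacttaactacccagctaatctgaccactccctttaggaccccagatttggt
H2-Eb2: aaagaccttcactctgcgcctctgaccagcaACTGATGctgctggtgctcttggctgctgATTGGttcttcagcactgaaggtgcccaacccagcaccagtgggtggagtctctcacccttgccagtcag

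In 4 of these 5 stretches, which were chosen for holding a box, a short X1 box stood upstream of a Y box core with nearly the same spacing. Of all 7 windows, 4 held this pair. The gap between them was 23 bases in H2-DMb1 and H2-DMb2 and 22 bases in H2-Eb1 and H2-Eb2. H2-DMb2 and H2-Eb2 are near copies of H2-DMb1 and H2-Eb1, so the 4 matches are not independent. On both strands of all 32851 windows of the same length, ATTGG was present in 37.4%, the short X1 box in 9.85% and the X2 box in 1.79%. The short X1 box placed 15 to 25 bases upstream of ATTGG was present in 0.107%, which is 35 windows of 34 genes. The letters of the short X1 box and the X2 box were chosen after these windows had been read. The H2-Aa window held a Y box core at position -48 and an X2 box at -74, but not the pair, and the H2-DMa windows did not hold it either. A match describes letters in a window and not binding, and a window without one says only that these letters are not in it.

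The libraries held between 20075265 and 23234797 counts. Prune2, the targeted gene, was lower in every Prune2 siRNA library than in any control library, at 3.80 ± 0.629 CPM (counts scaled to library size, SD, n = 3) against 6.95 ± 0.775 CPM, a log2 fold change of -0.87 (SE 0.15). On log2(FPKM + 1) and log2(FPKM + 0.1) it was -0.24 and -0.43 and did not pass in limma (adjusted p = 0.0827 and 0.0876). The labelled cell type was checked against marker genes. Of 9 fibroblast genes, Dcn and Lum were close to the detection floor, with mean levels of at most 0.480 CPM, and control means of the others ran from 0.594 CPM for Thy1 through 5.02 CPM for Pdgfra, 19.7 CPM for Pdgfrb, 86.0 CPM for Col1a2 and 236 CPM for Col1a1 to 570 CPM for Vim. Of 8 kidney tubule and epithelial genes, Krt8 stood at 2420 CPM, Krt18 at 1286 CPM, Epcam at 428 CPM and Cdh16 at 312 CPM, and Lrp2 (41.2), Aqp1 (9.60), Umod (1.38) and Slc12a1 (0.408 CPM) were lower. Levels in the lists overlapped, and epithelial RNA was present beside collagen RNA in cells labelled as fibroblasts.

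Class II transcripts were present in all control libraries and were several-fold lower in all Prune2 siRNA libraries. The difference ran from 10.6-fold for Ciita to 2.23-fold for H2-DMb1, with Cd74 at 7.73-fold and H2-Aa at 7.90-fold. Of the 9 genes, 7 had enough counts to enter the fit. Ciita passed the count filter only through the control libraries, as it had 5, 4 and 7 counts in the Prune2 siRNA libraries. Over all 13248 genes tested, 5.83% were lower at an adjusted p under 0.05 in edgeR, against 4.46% higher and 10.3% in either direction. The groups did not overlap for any of the 7, and 12.4% of all genes tested were lower without overlap. Because the genes were chosen for this contrast, nothing is read from that count. Their median log2 fold change was -2.45, against 0.004 over all genes tested. In a bulk sample, fewer cells that express a gene and less RNA per cell cannot be told apart.

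**Figure D1:**
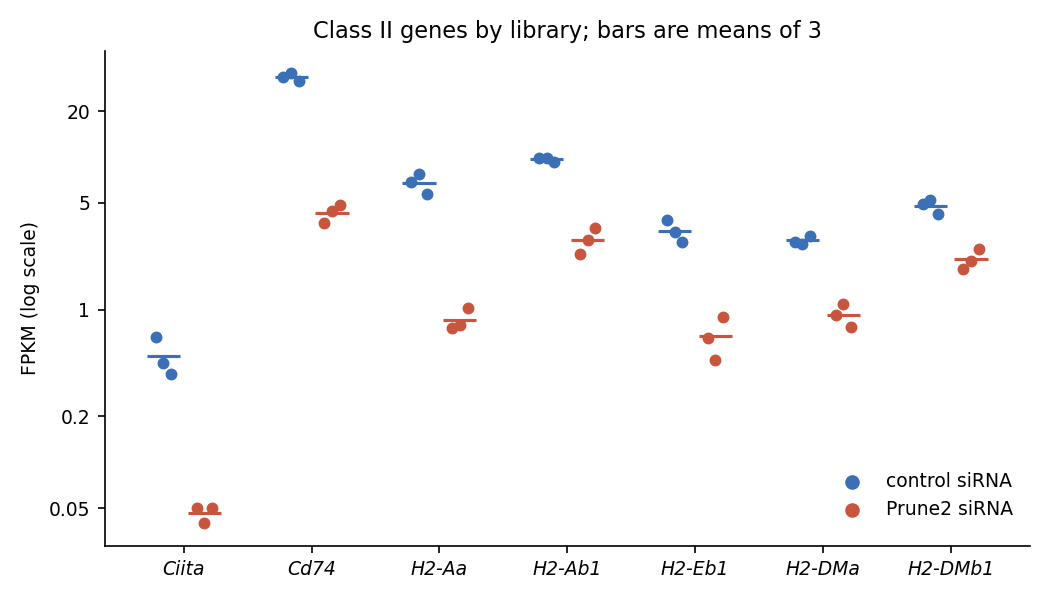
FPKM of the 7 class II genes with enough counts to be fitted, on a log axis, in each of the 3 control siRNA libraries (blue) and 3 Prune2 siRNA libraries (red), with the group mean as a bar. For every gene the highest Prune2 siRNA library lies below the lowest control library.

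Ciita, on chromosome 16 at 10480059 to 10528418 (GRCm38, plus strand), encodes the transactivator and was the scarcest of the 7 fitted genes. It had 68, 47 and 47 counts in control replicates 1, 2 and 3, and 5, 4 and 7 counts in Prune2 siRNA replicates 1, 2 and 3. On the deposited FPKM scale (fragments scaled to transcript length and depth) these are 0.66, 0.45 and 0.38 against 0.05, 0.04 and 0.05. The groups did not overlap, and the lowest control library lay far above all 3 Prune2 siRNA libraries. The log2 fold change was -3.40 (SE 0.36), the lowest of the 7. With single-digit counts in every Prune2 siRNA library, the SE is also the widest of the 7. Ciita shares 329 exon bases (3.45% of its exon bases) with Dexi on the opposite strand, and Dexi had a log2 fold change of 0.15 (SE 0.13). Whether counting used strand was not given in the sources used here.

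Cd74, on chromosome 18, encodes the invariant chain and was the most abundant of the genes in every library. Its FPKM was 33.66, 35.37 and 31.70 in control replicates and 3.70, 4.42 and 4.87 in Prune2 siRNA replicates, from 881, 897 and 927 counts against 101, 129 and 143. Control libraries differed from each other by little, and none came near the Prune2 siRNA range. The log2 fold change of -2.95 has an SE of 0.09, the narrowest of the 7, since Cd74 had the most counts.

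Among the classical chain genes, which lie side by side on chromosome 17, the alpha chain gene H2-Aa (34282744 to 34287823, minus strand) differed most. Its FPKM was 6.84, 7.77 and 5.70 in control replicates and 0.76, 0.79 and 1.03 in Prune2 siRNA replicates. No library of either group lay between these ranges, and the log2 fold change was -2.98 (SE 0.20). H2-Ab1 (34257689 to 34269419, plus strand) encodes the beta chain that pairs with H2-Aa. Its FPKM was 9.85, 9.90 and 9.21 in control replicates and 2.30, 2.87 and 3.41 in Prune2 siRNA replicates. Its controls were tight, its Prune2 siRNA libraries were spread more widely, and its log2 fold change was the smaller one at -1.75 (SE 0.13), a 3.37-fold difference.

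H2-Eb1 (34305867 to 34316674, plus strand) encodes the beta chain of the second classical class II molecule. It had 122, 100 and 101 counts in the controls against 17, 18 and 28 in the Prune2 siRNA libraries, and its FPKM was 3.85, 3.23 and 2.78 against 0.65, 0.47 and 0.89. The groups were apart on both scales. The log2 fold change of counts was -2.45 (SE 0.23), while the log2 value of FPKM in the authors' deposited table was -2.29, because the transcript length implied by counts and FPKM was not the same in every library. H2-Ea-ps, the alpha chain partner of H2-Eb1 that some mouse haplotypes do not transcribe, had 0 counts in all 6 libraries. A count of 0 allows up to 3 counts per library, or 0.128 to 0.150 CPM.

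The DM genes, whose products edit the peptides bound to class II, had log2 fold changes of smaller size than Ciita, Cd74 and the classical chains. H2-DMa lay close to H2-Ab1 (-1.75, SE 0.13), and closer still without Prune2 siRNA replicate 2 (-1.68 against -1.76). H2-DMa (34119541 to 34139101, plus strand) had 66, 63 and 83 counts in control replicates and 24, 38 and 22 in Prune2 siRNA replicates. Its FPKM of 2.79, 2.70 and 3.04 against 0.93, 1.09 and 0.77 left the groups well apart, and the log2 fold change of counts was -1.42 (SE 0.23). In the authors' deposited table the log2 value of FPKM was -1.61. H2-DMa shares 360 exon bases, 10.4% of its exon bases, with Brd2 on the opposite strand, a far more abundant gene with a log2 fold change of -0.07 (SE 0.04). H2-DMb1 (34153072 to 34160230, plus strand) had FPKM of 4.91, 5.25 and 4.24 in control replicates and 1.85, 2.08 and 2.51 in Prune2 siRNA replicates. These groups were apart too, but the ratio of the lowest control library to the highest Prune2 siRNA library was smaller than for any other fitted gene, and the log2 fold change was -1.16 (SE 0.16).

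The remaining rows hold near copies of the beta chains. H2-DMb2 (34143307 to 34151555, plus strand) had 8, 9 and 8 counts in control replicates and 2, 0 and 2 in Prune2 siRNA replicates. Scaled to total counts, the sums of 25 and 4 give a ratio of 6.60 with an exact 95% interval of 2.28 to 26.1 that covers counting error only. Its transcript is 95.8% identical to that of H2-DMb1 over 1080 aligned bases, with a longest identical run of 221 bases. How the counting treated reads that fit both genes was not given in the sources used here, so counts of either could include reads of the other. H2-Eb2 (34325665 to 34341412, plus strand) had 2 counts in control replicate 3 and 0 in the other 5 libraries, too few for a ratio. It is 80.7% identical to H2-Eb1 over 576 aligned bases.

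On the per-length FPKM scale, the order of the levels differed between the groups. In control libraries the order of the genes was Cd74, H2-Ab1, H2-Aa, H2-DMb1, then H2-Eb1 and H2-DMa with overlapping ranges, then Ciita. In Prune2 siRNA libraries Cd74 still came first, H2-Ab1 and H2-DMb1 overlapped each other in the next place, and H2-DMa, H2-Aa and H2-Eb1 overlapped in the place after them. The alpha chain gene H2-Aa thus stood above both DM genes in control libraries and in the range of H2-DMa in Prune2 siRNA libraries.

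Ratios of FPKM within each library show which genes kept their proportions. H2-Aa over H2-Ab1, the chains of the same heterodimer, was 0.694, 0.785 and 0.619 in control replicates and 0.330, 0.275 and 0.302 in Prune2 siRNA replicates. The ranges did not overlap, and the mean was 0.699 ± 0.0831 (SD, n = 3) against 0.303 ± 0.0276. Cd74 over H2-Ab1 was 3.48 ± 0.0836 against 1.53 ± 0.0911, again without overlap. Cd74 over H2-Aa was 5.01 ± 0.511 against 5.06 ± 0.465, with ranges that overlapped. The chaperone chains H2-DMa over H2-DMb1 gave 0.600 ± 0.105 against 0.445 ± 0.120, also overlapping. Cd74 and H2-Aa were thus lower by a like factor, and H2-Ab1 by a smaller one.

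**Figure D2:**
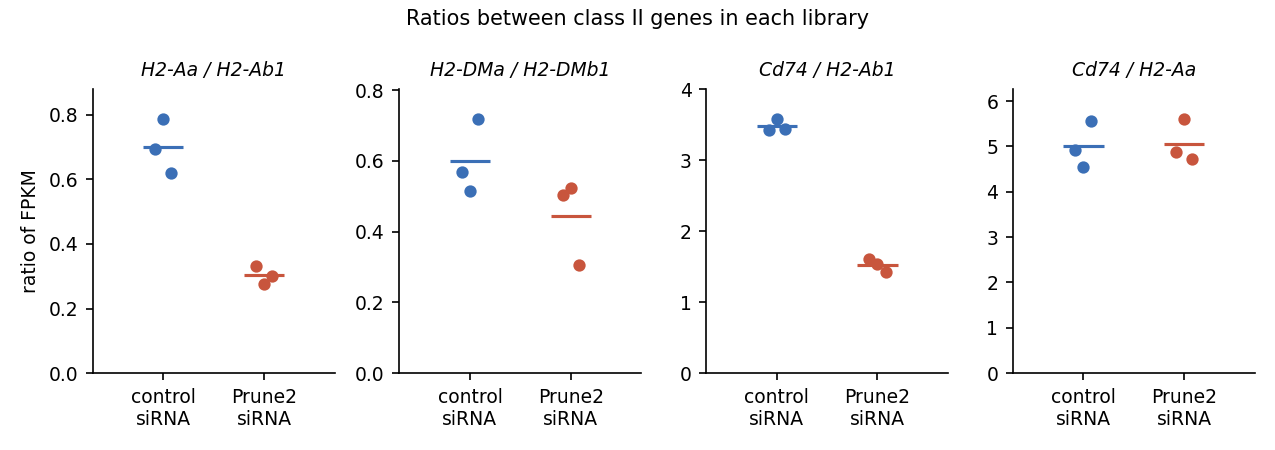
Ratio of FPKM between pairs of class II genes in each library, for 3 control siRNA (blue) and 3 Prune2 siRNA libraries (red), with group means as bars and axes from 0. H2-Aa over H2-Ab1 (mean 0.699 against 0.303) and Cd74 over H2-Ab1 (3.48 against 1.53) separate the groups, while Cd74 over H2-Aa (5.01 against 5.06) and H2-DMa over H2-DMb1 overlap.

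Within each group the same libraries tended to be at the extremes. Control replicate 3 had the lowest CPM of its group for 6 of the 7 fitted genes, and Prune2 siRNA replicate 3 had the highest of its group for 6 of 7. The exception among controls was H2-DMa, which was highest in control replicate 3, and it was also the exception in Prune2 siRNA replicate 3, where it was lowest. The same reads and library scaling enter all 7 values of a library.

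The other tested genes in the same stretch of chromosome 17 were not lower by the test. From the start of H2-Oa to the end of H2-Ea-ps, at 34092340 to 34344645, the table holds 15 genes, of which 7 are class II genes described here. Inside it lie Tap1 and Tap2, which carry peptides into the endoplasmic reticulum for class I, and the immunoproteasome genes Psmb8 and Psmb9. Tap1 rose in Prune2 siRNA libraries, with a log2 fold change of 0.39 (SE 0.11, adjusted p = 0.017 in edgeR). That call was lost without control siRNA replicate 3 (0.26, edgeR adjusted p = 0.141), without Prune2 siRNA replicate 1 (0.31, adjusted p = 0.108) and in limma on both FPKM scales (adjusted p = 0.266 and 0.345). Tap2 (0.19, SE 0.07), Psmb8 (0.19, SE 0.14), Psmb9 (-0.10, SE 0.38) and Brd2 (-0.07, SE 0.04) did not pass the test. H2-Oa and H2-Ob, the chains of DO, which inhibits DM, had 0 counts and 2 counts in all 6 libraries together.

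**Figure D3:**
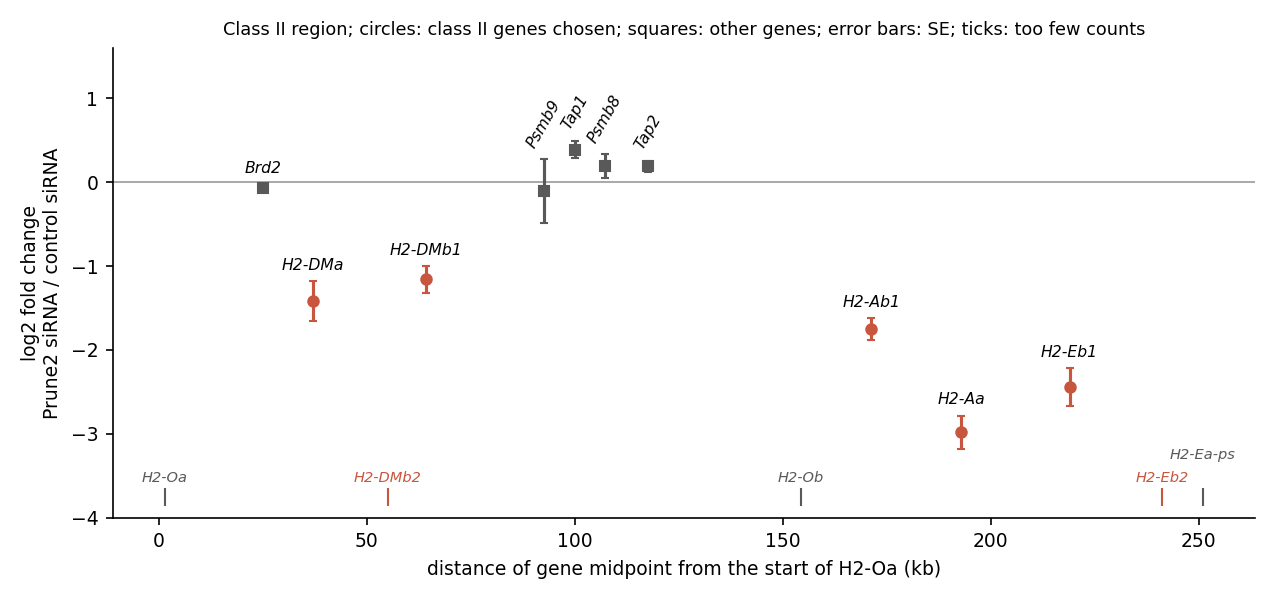
Log2 fold change (Prune2 siRNA over control siRNA, SE as error bars) against distance along the class II region of chromosome 17, in kb from the start of H2-Oa, with class II genes as red circles, other genes as grey squares and genes with too few counts as ticks. The red circles lie between -1.16 and -2.98, and the 5 grey squares between -0.10 and 0.39.

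The X and Y box pair of the class II promoters is also found upstream of class I genes, the MHC molecules that show peptides from inside the cell to CD8+ T cells. Of the 34 genes with the short X1 box 15 to 25 bases upstream of ATTGG, 4 were the class II genes printed above and 30 were others, 11 of which were tested. Among these 11, 3 were higher, 1 was lower and 7 were not called, against 10.3% called in either direction over all genes. The 3 higher ones were the class I genes H2-D1, H2-Q4 and H2-Q6, named here after their values had been seen. The H2-D1 stretch from 160 to 31 bases upstream, at chr17:35262934-35263063 on the plus strand, is shown for comparison with H2-DMb1, and its pair has the same 23-base gap.
H2-D1: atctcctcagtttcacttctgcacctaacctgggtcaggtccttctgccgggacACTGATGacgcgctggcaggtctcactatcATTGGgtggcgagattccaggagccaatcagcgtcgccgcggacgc

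H2-D1 rose from 193 ± 11.3 CPM (SD, n = 3) to 243 ± 19.3 CPM, a log2 fold change of 0.33 (SE 0.05, adjusted p = 1.85e-05 in edgeR). H2-Q4 rose by 0.56 (SE 0.07, adjusted p = 2.66e-06) and H2-Q6 by 1.02 (SE 0.22, adjusted p = 0.00193) on the log2 scale in the same edgeR fit. For each of these, and for H2-Q7, the 3 Prune2 siRNA libraries lay above all 3 controls. The share of all genes tested that did so was not counted. H2-Q7 (0.79, SE 0.26, adjusted p = 0.0518) and H2-M3 (0.39, SE 0.25, adjusted p = 0.443) carry the pair as well and did not pass. In limma on log2(FPKM + 0.1), H2-D1 (adjusted p = 0.0916) and H2-Q6 (0.0513) were not called and H2-Q7 was (0.0186). Class I genes are near copies of each other, so reads may have been split between them. Of the 5 class I genes with the pair, 3 rose and 0 fell. The 1 lower gene of the 11 was Stab1, which encodes the scavenger receptor stabilin-1 (log2 fold change -1.34, SE 0.10, adjusted p = 4.22e-10 in edgeR). Nlrc5, which encodes the class I counterpart of CIITA and was looked up after these values, had 50, 60 and 48 counts in control replicates and 107, 108 and 127 in Prune2 siRNA replicates. It rose by 1.02 on the log2 scale (SE 0.18, adjusted p = 0.000181 in edgeR), in the opposite direction to Ciita.

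Around the class II genes, 39 other genes of the pathway were listed by role, with earlier results of these data known. Enough counts to be tested were found for 33 of them. Of these, 3 were higher, 8 were lower and 22 were not called. Over all genes tested, 4.46% were higher and 5.83% lower, shares that also apply to the counts by role that follow. The median log2 fold change of the 33 was -0.02 against 0.004 over all genes tested. The 7 genes of the assembly that binds the X and Y boxes did not pass (0 called). Their log2 fold changes were 0.09 (SE 0.06) for Rfx5, -0.13 (SE 0.10) for Rfxap, -0.04 (SE 0.09) for Rfxank, -0.02 (SE 0.05) for Nfya, -0.15 (SE 0.07) for Nfyb and 0.07 (SE 0.05) for Creb1. Nfyc came nearest at 0.18 (SE 0.06, adjusted p = 0.0606 in edgeR), the 1 gene of the 7 with an unadjusted p under 0.05, and DESeq2 called 0 of the 7 as well. The DNA-binding partners of CIITA showed log2 differences within 0.18 of 0, and Ciita itself differed by -3.40. In a bulk sample, the levels of the partners cannot be assigned to the cells that express class II.

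Among genes that process the invariant chain and the antigen, 3 of 5 fell and 0 rose. Ctss, the cathepsin that makes the last cut of the invariant chain in antigen-presenting cells, fell from 23.7 ± 2.46 CPM to 3.32 ± 0.585 CPM, a 7.14-fold difference (log2 fold change -2.84, SE 0.12, adjusted p = 8.13e-15 in edgeR). That is close to the 7.73-fold of Cd74 itself. Ctsl, the cathepsin used for this cut in thymic epithelium and many other cells, fell by only 0.19 (SE 0.04) from a mean of 802 CPM. Lgmn, an asparagine endopeptidase, fell by 0.20 (SE 0.04) from a mean of 103 CPM. In limma on log2(FPKM + 1) and log2(FPKM + 0.1), Ctsl (adjusted p = 0.0566 and 0.0865) and Lgmn (0.114 and 0.157) did not pass, at like fold changes. Ifi30, a lysosomal thiol reductase that unfolds antigens, had 40.5 CPM against 40.0 CPM and did not pass (adjusted p = 0.907 in edgeR), and neither did the intramembrane protease gene Sppl2a (0.08, SE 0.04).

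March1 encodes a ubiquitin ligase that removes class II from the surface of antigen-presenting cells. It fell from 2.21 ± 0.254 CPM to 0.658 ± 0.249 CPM (log2 fold change -1.72, SE 0.30, adjusted p = 0.000214 in edgeR). Its broadly expressed relative March8 stood at 101 and 103 CPM and did not pass. Cd83, which protects class II from March1, had 32 and 28 counts over the 3 libraries of each group and was too scarce to be tested.

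Genes that induce Ciita moved in both directions. Ifng had 0 counts in all 6 libraries. Of the interferon-γ pathway, Ifngr1 rose by 0.22 (SE 0.04) and Jak2 fell by 0.16 (SE 0.04) on the log2 scale, while Irf1 (0.10, SE 0.06), Ifngr2, Jak1 and the inhibitor gene Socs1 did not pass. On the same FPKM scales in limma, Ifngr1 (adjusted p = 0.0514 and 0.0797) and Jak2 (0.147 and 0.163) were not called either. The myeloid factors behind the dendritic cell and macrophage promoter of Ciita fell. Spi1, which encodes PU.1, fell from 2.83 ± 0.373 CPM to 0.613 ± 0.466 CPM (log2 fold change -2.18, SE 0.33), and Irf8 fell from 5.02 ± 0.685 CPM to 1.35 ± 0.273 CPM (log2 fold change -1.88, SE 0.21). Spi1 stood at -2.96 on this scale when Prune2 siRNA replicate 2 was left out, and its limma adjusted p on log2(FPKM + 0.1) was 0.0757.

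Of the genes listed under T cell costimulation, 1 of 5 fell. Cd86 fell from 0.895 ± 0.394 CPM to 0.150 ± 0.0560 CPM, on 56 and 10 counts (log2 fold change -2.53, SE 0.51, adjusted p = 0.00101 in edgeR), and did not pass in limma on log2(FPKM + 1) (adjusted p = 0.0633). Cd80 (-0.75, SE 0.35), Cd40 (-0.09, SE 0.06), Icosl (-0.36, SE 0.28) and Cd274 (0.35, SE 0.19) did not pass. CD74 at the cell surface is also the receptor of the cytokine MIF, and of the genes on that side 1 of 5 tested rose. Cd44, the signalling partner of CD74, rose from 655 to 750 CPM (log2 fold change 0.19, SE 0.04, adjusted p = 0.00395 in edgeR), and was not called in limma on log2(FPKM + 1) or log2(FPKM + 0.1) (adjusted p = 0.179 and 0.25). Mif had 67.8 CPM against 70.3 CPM and did not pass, nor did its relative Ddt or the receptors Cxcr4 and Ackr3.

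**Figure D4:**
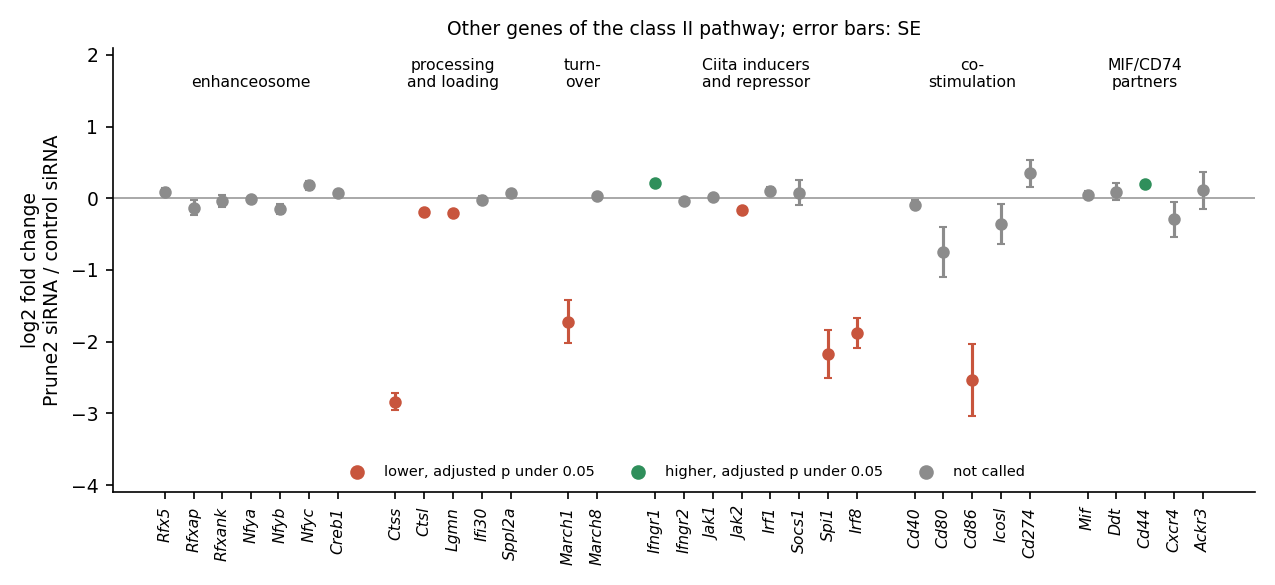
Log2 fold change (Prune2 siRNA over control siRNA, SE as error bars) of 32 of the 33 tested genes of the class II pathway outside the chosen genes, by role, coloured by whether edgeR's adjusted p was under 0.05. The 7 enhanceosome genes lie near 0, while Ctss, March1, Spi1, Irf8 and Cd86 lie between -1.72 and -2.84.

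Marker genes of macrophages and of leukocytes in general moved with these results. Where 5.83% of all genes tested were lower, 17 of 18 macrophage and pan-leukocyte markers fell and 0 rose, with a median log2 fold change of -2.57. The exception was Cd14 (0.18, SE 0.12). The marker lists were written with earlier results of these data known, so this count is only a description. The log2 fold change was -4.19 for the chemokine receptor gene Cx3cr1, -2.94 for the complement gene C1qa, -2.44 for Adgre1, -2.23 for Ptprc, which encodes CD45, and -1.09 for Csf1r. In limma on log2(FPKM + 0.1), Adgre1 (adjusted p = 0.146) and Csf1r (0.0525) were not called. The 7 fitted class II genes, from -1.16 to -3.40, lay inside the range of these markers. That range is wide, from 0.18 for Cd14 to -4.19 for Cx3cr1, so lying inside it says little. The markers' summed level was 209, 223 and 174 CPM in control replicates and 51.4, 49.3 and 51.7 CPM in Prune2 siRNA replicates. The class II genes summed to 82.6, 84.0 and 74.3 CPM and to 13.3, 15.5 and 17.4 CPM. Per 100 CPM of markers, class II came to 39.5, 37.7 and 42.8 in control replicates and 25.8, 31.5 and 33.6 in Prune2 siRNA replicates. This order rests on how the markers are summed. Cd14 (7.54 CPM in control and 8.55 CPM in Prune2 siRNA libraries) and Csf1r (27.3 and 12.8 CPM) make up much of the marker sum in Prune2 siRNA libraries, and the median log2 fold change was -2.57 for the markers and -2.45 for the class II genes. The part of the macrophage markers in the class II difference was not tested.

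**Figure D5:**
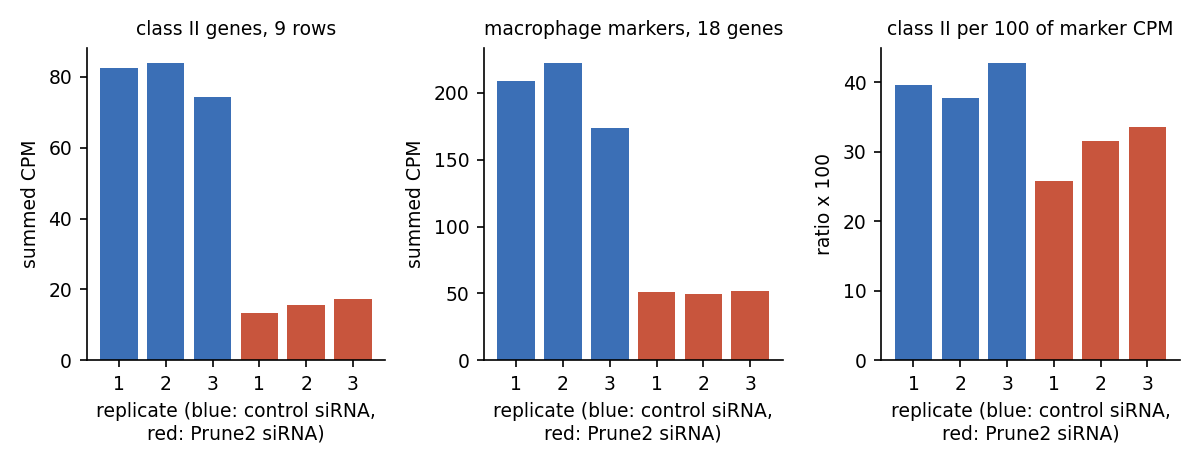
Summed CPM of the 9 class II genes (left), summed CPM of 18 macrophage and pan-leukocyte markers (middle) and the former per 100 CPM of the latter (right) in each library, with 3 control siRNA libraries in blue and 3 Prune2 siRNA libraries in red. Both sums are several-fold lower in the red libraries, and the ratio is 37.7 to 42.8 in blue and 25.8 to 33.6 in red.

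Apart from Itgax and Zbtb46, at 19.4 and 10.0 CPM in control libraries, markers of the other professional antigen-presenting cells were scarce. Of 8 dendritic cell markers 2 were tested. Itgax, which encodes CD11c and is shared with macrophages, fell (log2 fold change -2.77, SE 0.16), and Zbtb46 did not pass (0.05, SE 0.11). In a bulk sample, the level of Zbtb46 cannot be assigned to dendritic cells. The defining marker Flt3 had 4 and 2 counts over the 3 control and 3 Prune2 siRNA libraries. Summed in the same way, Xcr1 had 9 and 15, Batf3 9 and 10, Ccr7 2 and 0 and Clec9a 1 and 0, and Cd209a had 0 in all 6. The list summed to 25.1 to 33.1 CPM in control and 13.1 to 14.0 CPM in Prune2 siRNA libraries, nearly all of it from Itgax and Zbtb46. None of 6 B cell markers had enough counts to be tested, with sums of 0.174 to 0.550 CPM against 0.0427 to 0.393 CPM, and Cd79a had 3 counts over the control libraries and 0 over the Prune2 siRNA libraries. Among T cell markers Cd3d, Cd3e and Cd3g had 0 counts in all 6 libraries. Cd4, which mouse myeloid cells can also express, fell from 52 to 2 counts, a call lost in limma on log2(FPKM + 1) (adjusted p = 0.0568). The other tested T cell marker, Trac, had 33 and 28 counts over the control and Prune2 siRNA libraries and did not pass (-0.32, SE 0.43). That list summed to 0.956 to 1.86 CPM in control and 0.384 to 0.519 CPM in Prune2 siRNA libraries.

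Markers of tubular epithelium, endothelium and fibroblasts, cells that can gain class II under interferon-γ, moved less. Over all genes tested, 4.46% were higher and 5.83% lower. The tubular epithelium list summed to 4430 to 4580 CPM in control and 4052 to 4450 CPM in Prune2 siRNA libraries, ranges that overlapped, with 1 of 7 tested genes higher and 3 lower. Endothelial markers summed to 89.9 to 97.7 CPM against 67.8 to 69.1 CPM, and 4 of 6 fell, among them Pecam1 by 0.51 (SE 0.09) on the log2 scale, which did not pass in limma on either FPKM scale (adjusted p = 0.129 and 0.214). Fibroblast markers summed to 897 to 940 CPM against 678 to 721 CPM, and 3 of 7 tested fell (Col1a1, Col1a2 and Vim). The call of Col1a1 was lost in limma on both FPKM scales (adjusted p = 0.12 and 0.167), and that of Col1a2 there and without control siRNA replicate 3 (edgeR adjusted p = 0.157), Prune2 siRNA replicate 1 (0.075) or Prune2 siRNA replicate 2 (0.108). The part of these markers in the class II difference was not tested.

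The 5 genes whose pattern over the 6 libraries was most like the mean of the fitted class II genes included C1qb, Csf2rb, Cybb and Tbxas1, out of 12540 genes of at least 1 CPM. Pearson's r of log2 CPM was 0.9992 for C1qb and 0.9987 for Tbxas1, and since the libraries fall into 2 groups this mostly reflects the difference between them. C1qb encodes a chain of complement C1q, Csf2rb the shared beta receptor chain for GM-CSF, and Cybb a subunit of the phagocyte NADPH oxidase. Their log2 fold changes were -3.03 for C1qb, -2.29 for Csf2rb, -3.24 for Cybb and -1.51 for Tbxas1.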

How the data were processed

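The 6 RNA-seq libraries, 3 control siRNA and 3 Prune2 siRNA, were grouped by sample title. The table that the authors deposited holds, per the file headers, read counts and FPKM for each library, besides group mean FPKM and a log2 fold change. Its deposited p-value columns were not used. The submitters' processing notes name GRCm38 and mm10. Aligner, counter, strand setting and handling of shared reads were not given in the sources used here. A change in implied transcript length can move FPKM apart from counts.

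Gene identifiers were matched to GENCODE M21 (22219 of 22274). Deposited counts were fitted with edgeR 4.0.16 in R 4.3.3 (TMM, filterByExpr, glmQLFit, glmQLFTest), with Benjamini-Hochberg adjustment over 13248 genes and calls at an adjusted p under 0.05. The SE is the log2 fold change divided by the square root of F. CPM uses TMM-scaled library sizes for all genes. Chi-square over genes between libraries of a group was 2.57 to 3.92 times its degrees of freedom, more than sampling noise gives, so each library counts once. Intervals and floors cover counting error only. Levels of low genes rest on few counts. Scripts were tested on simulated data.

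The class II genes, pathway and marker lists were chosen with earlier results of these data known. Named are the class II genes, Prune2, the listed pathway genes by role, markers, the region's genes, the 5 most alike genes, and those said to be named after their values. Some genes that this covers are counted but not reported here by name. Alternatives were DESeq2 1.42.0, limma 3.58.1 on voom values and on log2 FPKM, other scalings, no filter, a replicate block and leaving out each library.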

Additional observations from a re-analysis of the deposited data

How the results depend on the processing

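All 7 fitted class II genes stayed lower in Prune2 siRNA libraries under the 14 alternatives tried. Their log2 fold changes ran from -3.61 to -0.51 for Ciita, -3.03 to -2.70 for Cd74, -3.14 to -2.06 for H2-Aa, -1.90 to -1.47 for H2-Ab1, -2.68 to -1.36 for H2-Eb1, -1.68 to -0.996 for H2-DMa and -1.29 to -0.88 for H2-DMb1. The smallest size for Ciita came with a pseudocount of 1 FPKM, which is above its own level. The edgeR counts of 591 higher and 773 lower genes became 209 and 380 with limma on log2(FPKM + 1), and 113 and 296 on log2(FPKM + 0.1). The pathway genes, 3 higher and 8 lower in edgeR, became 1 and 4 with the former and 0 and 4 with the latter (4 higher and 9 lower at an unadjusted p under 0.05). The cause was not tested. DESeq2, voom and other scalings gave 461 to 588 higher and 653 to 816 lower genes, and no filter on low counts gave 708 and 897. Leaving out each library gave 401 to 551 higher and 596 to 708 lower, and for pathway genes 3 higher and 7 to 8 lower, with the call of Jak2 lost (edgeR adjusted p = 0.0608) without Prune2 siRNA replicate 3. Among pathway genes that did not pass, some crossed 0 when single libraries were left out. Rfxank ran from -0.1091 to 0.01251 (positive without control siRNA 2, at 0.005601, and without Prune2 siRNA 1), Nfya from -0.08323 to 0.02715 (0.01052 and 0.007673 without control siRNA 3 and Prune2 siRNA 1), Ifi30 from -0.06284 to 0.01373, March8 from -0.004117 to 0.05548, and Ackr3 from -0.09527 to 0.3738 (-0.06335 without Prune2 siRNA 1). On the FPKM scales with pseudocounts of 1 and 0.1, Creb1 was -0.009758 and -0.01059 and Ifngr2 was 0.06728 and 0.06922. No pairing by replicate number was seen: deviations of same-numbered libraries correlated at 0.0506, -0.0122 and 0.0251. Control replicate 2 correlated best with Prune2 siRNA replicate 1. With 3 libraries per group, these correlations cannot settle whether same-numbered libraries shared a culture or batch. With a replicate block, 664 genes were higher and 826 lower, and 3 and 8 pathway genes.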
